A study of Homo sapiens with 24 samples.

Results

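The respiratory chain and ATP synthase are the protein complexes of the inner mitochondrial membrane that pass electrons to oxygen and make ATP. Here they were read through every probe set whose single gene symbol begins with NDUF, UQCR, COX4 to COX8, SDHA to SDHD or ATP5, or is CYC1 or CYCS, a rule that uses names and no measured value. The rule found 182 of 54613 probe sets, which stand for 96 of 19775 genes. Of these genes, 91 code for proteins, and the other 5 are antisense RNAs, divergent transcripts or pseudogenes. A filter on dim probe sets left 91 genes tested, 87 of them coding.

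The cells were D425, an established human medulloblastoma line grown in MEM with fetal calf serum. The arm called shOTX2 carried a doxycycline-inducible short hairpin RNA against OTX2, a homeobox transcription factor, and gave 3 independent time courses with 1 array each at 0, 8, 16, 24, 48 and 96 h after doxycycline. A control course gave 1 array at each of the same times. The labels do not say what construct the control cells carried, whether they were given doxycycline in the same way, or whether either arm was 1 clone. The question of the series was how the transcriptome changes once OTX2 is silenced.

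Complex I takes electrons from NADH and complex II from succinate. Both hand them to ubiquinone, from which complex III, cytochrome c and complex IV carry them to oxygen. The proton gradient built on the way drives the ATP synthase, also called complex V. Nearly all of their subunits are encoded in the nucleus and imported, and a small core set is encoded by the mitochondrial genome. No probe set was named for a transcript of the mitochondrial genome, so the values below cover the nuclear share of the complexes.

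Signals are MAS5 signals on a linear scale, with every array scaled to the same trimmed mean. A log2 change is the difference of means of log2(signal + 16), and genes with a Benjamini-Hochberg adjusted p under 0.05 among the 13903 tested by limma are named as called. The groups of 3 arrays share 1 estimate of spread, which the control arrays, 1 per time, are assumed to share. The p-values measure the spread between these courses.

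The brighter OTX2 probe set read 4188 at 96 h and 4659 at 0 h in the shOTX2 arm. Its log2 change of -0.15 was not called (adjusted p = 0.172), so this probe set gave no check of silencing. A dimmer OTX2 probe set is not reported here, and the arms are called by their labels. The ratio of 3' to 5' actin probes, a sign of RNA or labelling quality, was 1.42 ± 0.084 in course 1, 2.07 ± 0.198 in course 2, 1.91 ± 0.057 in course 3 and 1.40 ± 0.086 in the control course (SD, n = 6 arrays each). The 4 markers of D425 summed to between 7739 and 8261 on the 96 h arrays, against 9598 to 10678 on the 0 h arrays, with the control at 12473 at 96 h and 10974 at 0 h. MYC fell (log2 change -0.71, adjusted p = 4.93e-05), CRX rose (1.24, adjusted p = 6.24e-05) and NRL was not called (0.81, adjusted p = 0.0595). The 5 neuronal markers summed to between 6493 and 7057 at 96 h, against 3995 to 5155 at 0 h. The control was at 3775 and 4314 at those times. DCX, STMN2, SYT1 and SNAP25 were called higher. TUBB3 was not called, at 2262 at 96 h against 2691 at 0 h (log2 change -0.27, adjusted p = 0.545). The 4 fibroblast markers, 3 of them above the filter, summed to between 453 and 853 at 96 h, against 52.3 to 82.2 at 0 h. The control was at 152.1 and 145.4, and the 96 h means in the shOTX2 arm were nearly all COL1A1. GFAP and AQP4 of astrocytes never exceeded 5.6 and 14.2 on any array. The part of these markers in the changes below was not tested, and in bulk RNA fewer cells of a type and less RNA per cell cannot be told apart.

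By 96 h the respiratory chain and ATP synthase genes had fallen in number and by small amounts. Of 91 tested genes, 44 were called lower and 3 higher than at 0 h in the shOTX2 arm. Over all tested genes 43.6% were called at this time, 22.5% lower and 21.1% higher. The median log2 change was -0.27 over the members and -0.0007 over all tested genes. The members were bright, with a median 0 h mean of 1434.5 against 104.8 over all tested genes. Of the 91 members, 83 were brighter than the median tested gene. The part of brightness in these counts was not tested. All 44 falling genes had every 96 h array below every 0 h array, but the same arrays gave the calls, so this adds no support. Their 96 h means were 40.9% to 87.4% of the 0 h means, with a median of 72.7%, and 2 of the 47 called genes passed a 2-fold change. Without course 2 the count of lower calls was 23, although all 44 still had a negative change, and over all genes 15.6% were then called lower and 14.6% higher. A second fit took the number of the course as a block, since the arrays of 1 course deviated together across times, and is named the blocked fit. It called 52 members lower and 5 higher, against 27.8% and 25.9% of all genes. With each array centred on its own median signal, 53 were lower and 0 higher, against 27.0% and 16.8% of all genes. After quantile normalization 33 were lower and 6 higher, against 24.1% and 19.6% of all genes, and the medians were -0.17 over the members and -0.0593 over all genes.

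**Figure D1:**
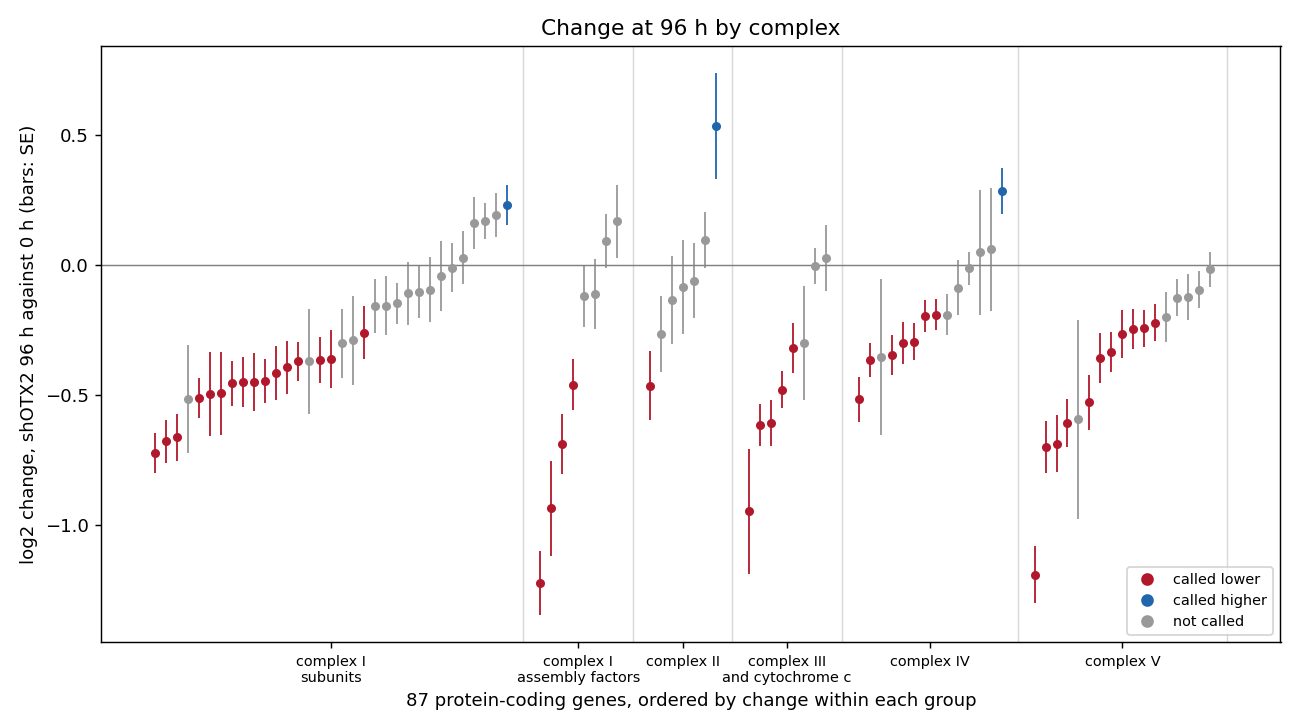
Log2 change at 96 h against 0 h in the shOTX2 arm (vertical axis) for 87 protein-coding genes, ordered within each complex. Points are changes of means of 3 arrays and bars are standard errors. Complexes I, III, IV and V hold most of the called falls, and NDUFAF2 and ATP5MC1 lie lowest. The 3 called rises lie in complexes I, II and IV, where complex II includes its assembly factors.

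Every complex held called genes at 96 h, where 43.6% of all tested genes were called, 22.5% lower and 21.1% higher. Complex I subunits gave 16 lower and 1 higher of 33, with a median of -0.36. Complex I assembly factors gave 4 lower and 0 higher of 8, with a median of -0.29. Complex II gave 1 lower and 1 higher of 7, with a median of -0.09, and its 14.3% lower was under the share of all genes. Unlike complex I, this set joins the subunits SDHA, SDHC and SDHD with the assembly factors SDHAF1 to SDHAF4. SDHB was not among the members. Complex III with cytochrome c gave 5 lower and 0 higher of 8 (median -0.40), complex IV 7 lower and 1 higher of 14 (median -0.19), and complex V 11 lower and 0 higher of 17 (median -0.27). The differences between complexes were not tested. None of the 4 non-coding members tested was called.

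The falls came late. At 8 h no member was called by limma, and none had an unadjusted p under 0.05, where 0.0% of all genes were called and 3.32% had such a p. At 16 h no member was called and 5 had an unadjusted p under 0.05, against 1.02% of all genes called and 11.2% with such a p. At 24 h a single member was called, NDUFB5, which was higher, against 6.14% of all genes, 3.45% higher and 2.68% lower. The blocked fit called 2 members at 16 h, NDUFAF8 and NDUFB5, against 5.71% of all genes, and 6 at 24 h, against 15.3%. At 48 h 12 members were lower and 9 higher, with 33.3% of all genes called, 17.0% lower and 16.2% higher, and a member median of -0.02. The blocked fit gave 32 calls, against 44.5% of all genes. Between 48 and 96 h, 29 members were called lower and 0 higher in the comparison of 96 h with 48 h, where 11.8% of all genes were called, 6.45% lower and 5.31% higher. In the blocked fit 55 members were lower and 0 higher over this step, against 24.2% of all genes called. Of the 44 genes lower at 96 h, 12 were already called lower at 48 h and 24 were called in the step from 48 h.

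**Figure D2:**
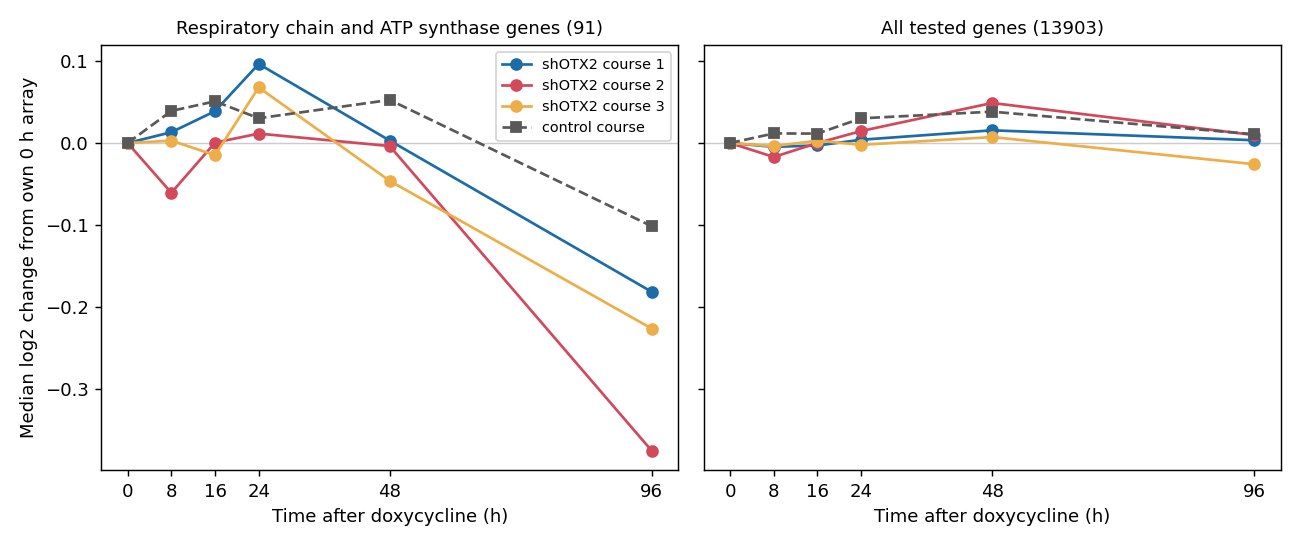
Median log2 change from the 0 h array of the same course (vertical axis) by time after doxycycline in hours (horizontal axis), for 91 respiratory chain and ATP synthase genes (left) and for all 13903 tested genes (right). Each line is 1 course. The members' medians stay near 0 up to 48 h and at 96 h reach -0.18, -0.38 and -0.23 in courses 1, 2 and 3 and -0.10 in the control, while the medians of all genes stay near 0.

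The control course also moved downwards at 96 h. Its 96 h array lay below its 0 h array for 65 of 91 members (71.4%), with a median log2 change of -0.10, against 48.6% of all genes and a median of 0.0107. Of the called falls, 34 of 44 were lower there too. Relative to the control's own change, the member medians were -0.06 in course 1, -0.26 in course 2 and -0.10 in course 3, with 55, 70 and 58 of 91 members lower (60.4%, 76.9% and 63.7%). Over all genes the medians were -0.0056, -0.0106 and -0.0293, with 50.3%, 50.6% and 52.1% lower, and all 3 comparisons subtract the same pair of control arrays. Courses 2 and 3 had the higher actin ratios and course 1 and the control the lower ones, and the part of this in the medians was not tested. Late against early control arrays (48 and 96 h against 0 and 8 h) gave no call among the members or among all genes by limma (0.0%), with 6 members and 1108 genes (7.97%) at an unadjusted p under 0.05. The blocked fit called 0 members and 88 genes (0.633%) in this comparison.

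A further test set the change in the shOTX2 arm against the change in the control. The hairpin, possible differences in doxycycline and differences between the cells of the arms cannot be told apart in it. For 96 h against 0 h, 8 of 91 members were called lower (8.79%) and none higher, against 13.6% of all genes called, 7.43% lower and 6.21% higher. The members' share was thus close to that of all genes. For the later times together (48 and 96 h against 0 and 8 h), 10 members were called lower and 3 higher, against 22.4% of all genes, 12% lower and 10.4% higher. In the blocked fit these counts were 20 for 96 h, where 25.9% of all genes were called, and 30 for the later times together, where 35.0% were called. Without course 2 the 96 h count was 1, against 6.25% of all genes, without course 3 it was 3, against 9.67%, and without course 1 it was 9, against 19.0%. At 0 h no member was called between the arms by limma, 6 had an unadjusted p under 0.05 (9.29% of all genes did), and 0.453% of all genes were called. Without course 1 there were 4 calls, against 4.58% of all genes.

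NDUFAF2, an assembly factor that binds a late intermediate of complex I, had the largest fall of all members. Its signals were 206, 219 and 243 at 96 h, against 642, 527 and 465 at 0 h, and the control read 690 at 96 h and 657 at 0 h. The groups were well apart, and the 96 h mean was 40.9% of the 0 h mean while the control's was 105.0%. The log2 change was -1.22 (SE 0.12, adjusted p = 2.80e-07), and the difference from the control's change was -1.29 (SE 0.25, adjusted p = 0.0019). This was the only one of the 8 arm differences at 96 h that kept its call under all 13 other settings. The change had begun by 48 h, when the signals were 323, 302 and 246 and the log2 change was -0.87 (adjusted p = 2.65e-05).

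NDUFA12, the accessory subunit that replaces NDUFAF2 in the finished enzyme, fell as well. It read 1506, 1417 and 1571 at 96 h, against 2504, 2642 and 2314 at 0 h, and 2018 against 2104 in the control. All 96 h arrays of the shOTX2 arm lay below all 0 h arrays. The log2 change was -0.72 (SE 0.08, adjusted p = 6.10e-07), and the arm difference was -0.66 (adjusted p = 0.0078). That difference was not called without course 2 (adjusted p = 0.0812).

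NDUFA9, an accessory subunit near the site where ubiquinone binds, read 864, 761 and 755 at 96 h, against 1181, 1380 and 1279 at 0 h. The control read 1091 at 96 h and 1120 at 0 h. Its groups did not overlap, and the log2 change of -0.68 (SE 0.08, adjusted p = 2.74e-06) differed from that of the control by -0.64 (adjusted p = 0.0144). Without course 2 that adjusted p was 0.143, and without course 3 it was 0.102. NDUFS6, a zinc-binding accessory subunit, read 762, 780 and 876 at 96 h, against 1207, 1379 and 1273 at 0 h. It fell by 0.66 on the log2 scale (adjusted p = 7.77e-06). The arm difference of NDUFS6, -0.48, was not called (adjusted p = 0.0869), while the blocked fit called it (0.0138). Over the later times together its difference was -0.42 (adjusted p = 0.0214), and it was not called without course 2 or without course 3 (adjusted p = 0.0913 and 0.0697).

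**Figure D3:**
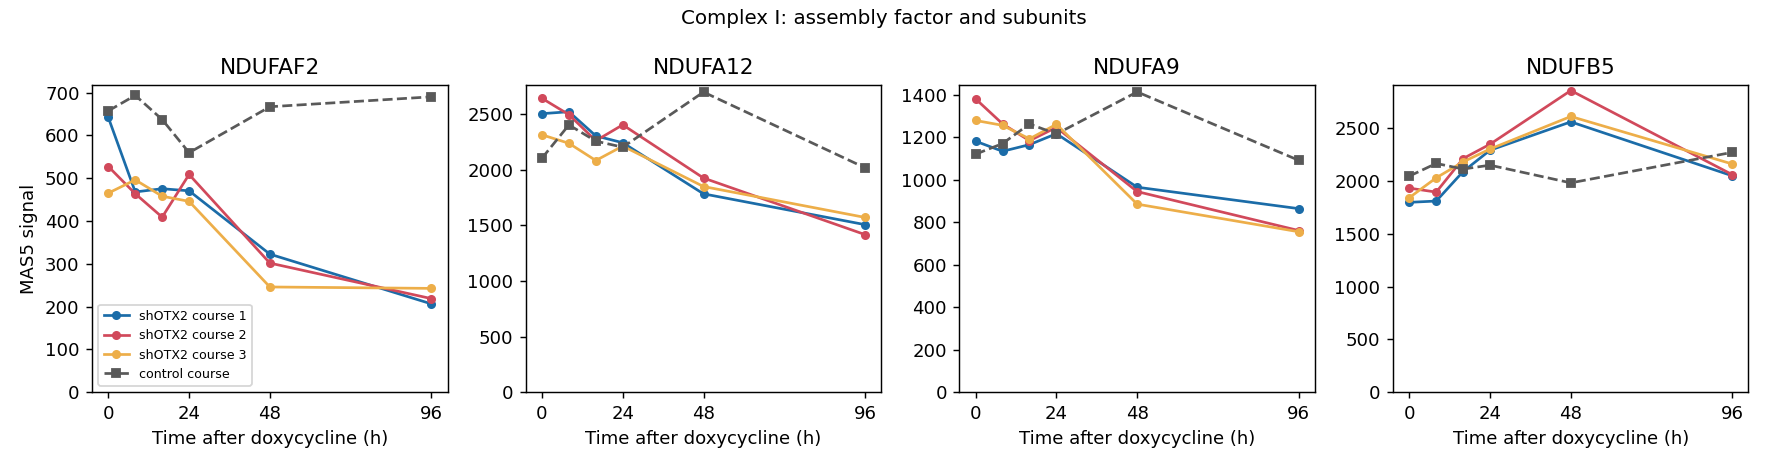
MAS5 signal (vertical axes, each from 0) by time after doxycycline in hours (horizontal axes) for the assembly factor NDUFAF2 and the complex I subunits NDUFA12, NDUFA9 and NDUFB5, 1 line per course. NDUFAF2, NDUFA12 and NDUFA9 decline from 24 h on in all 3 shOTX2 courses, and NDUFB5 peaks at 48 h.

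Of the other assembly factors of complex I, 3 were lower too. NDUFAF8 read 691, 453 and 502 at 96 h, against 1214, 1115 and 849 at 0 h, a log2 change of -0.94 (SE 0.18, adjusted p = 3.71e-04). Its control fell as well, to 827 at 96 h against 1087 at 0 h. The arm difference of -0.55 was not called (adjusted p = 0.386), while the blocked fit called it (adjusted p = 0.034). NDUFAF8 was also the member with the earliest fall, and the blocked fit called it at 16 h (-0.49, adjusted p = 0.0028) and at 24 h (-0.42, adjusted p = 0.0038). NDUFAF3 and NDUFAF4, partners in an early assembly step, fell by 0.69 and 0.46 on the log2 scale (adjusted p = 9.09e-05 and 8.71e-04). The arm difference of NDUFAF4 was -0.62 (adjusted p = 0.0454) and was not called without course 2 or course 3 (adjusted p = 0.198 and 0.0717). A second, dimmer NDUFAF4 probe set had a log2 change of 0.39 that was not called (adjusted p = 0.132 in a fit of all probe sets), and the mean of both probe sets was not called at 96 h (adjusted p = 0.843). NDUFAF1, NDUFAF5, NDUFAF6 and NDUFAF7 were not called, with changes between -0.12 and 0.17.

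Within complex I a few subunits moved the other way. NDUFB5, a subunit of the membrane arm, had signals of 1796, 1931 and 1840 at 0 h. The arrays of 24 h read 2289, 2346 and 2300, those of 48 h read 2558, 2854 and 2609, and those of 96 h read 2047, 2058 and 2159. It rose until 48 h and then turned back. Its log2 changes were 0.32 at 24 h (adjusted p = 0.0107) and 0.52 at 48 h (adjusted p = 1.43e-05), and 96 h against 48 h gave -0.35 (adjusted p = 0.0028). The 24 h call was lost without any 1 of the courses (adjusted p between 0.0683 and 0.175). At 96 h the change was 0.17 and not called (adjusted p = 0.059, against 0.0186 in the blocked fit).

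NDUFB4, another membrane arm subunit, read 4049, 3518 and 3590 at 96 h, against 2968, 3438 and 3106 at 0 h. The 96 h arrays all exceeded the 0 h arrays, and its log2 change was 0.23 (adjusted p = 0.0223). The call was lost after centring arrays on their medians (adjusted p = 0.323), without course 1 (adjusted p = 0.322) and without course 3 (adjusted p = 0.139). The arm difference over the later times was 0.38 for NDUFB4 (adjusted p = 0.0175) and 0.31 for NDUFB5 (adjusted p = 0.0284), and both calls were lost with median centring (adjusted p = 0.0875 and 0.125). NDUFB4 also lost its call without course 1 or 3 (adjusted p = 0.0715 and 0.0843), and NDUFB5 without any 1 course (adjusted p between 0.0509 and 0.108). The core subunits that carry the electron path were mixed. NDUFS1, an iron-sulfur subunit that belongs to the module that oxidises NADH, read 652, 705 and 754 at 96 h, against 854, 1005 and 932 at 0 h, and fell by 0.39 on the log2 scale (adjusted p = 0.004), but not without course 2 (adjusted p = 0.0832) or with its probe sets averaged (adjusted p = 0.761). NDUFS7, an iron-sulfur subunit next to the ubiquinone site, read 355, 286 and 344 at 96 h, against 467, 452 and 440 at 0 h, and fell by 0.45 (adjusted p = 0.0031, and 0.0712 without course 2). NDUFV1, NDUFV2 and NDUFS3 were not called, at -0.30, -0.01 and -0.15 (adjusted p = 0.076, 0.940 and 0.143). NDUFV1 was called in the blocked fit (0.0013), without course 1 (0.0192) and with median centring (0.0223), and NDUFS3 with median centring alone (0.0184). NDUFS7, NDUFV1, NDUFV2 and NDUFS3 were picked after their values were seen.

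In complex II the membrane anchor SDHD read 761, 951 and 1097 at 96 h, against 1186, 1217 and 1471 at 0 h. It was the one member of the complex called lower, and its log2 change of -0.47, with an SE of 0.13, was called at an adjusted p of 0.0081 (0.0564 without course 2). The arm difference of -0.55 was not called (adjusted p = 0.206), while the blocked fit called it (adjusted p = 0.0179). SDHA, the flavin subunit, changed by -0.27 at 96 h, which was called in the blocked fit (adjusted p = 0.0158) and not otherwise (adjusted p = 0.160). The blocked fit also called SDHA at 48 h (-0.27, adjusted p = 0.0174). It called the arm difference of SDHA over the later times as well (-0.42, adjusted p = 0.0124). SDHAF4, an assembly factor of SDHA, was the one called rise. It was dim, with 49.6, 66.5 and 71.7 at 96 h, against 37.3, 27.7 and 51.2 at 0 h, and 46.9 against 35.4 in the control. The groups overlapped, since the lowest 96 h array lay below the highest 0 h array, and the call (0.53, SE 0.20, adjusted p = 0.0422) was lost without course 2 (adjusted p = 0.421), with median centring (adjusted p = 0.10) and after quantile normalization (adjusted p = 0.134).

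Cytochrome c and complex III showed the largest share of falls after complex V. CYC1, the cytochrome c1 subunit of complex III, read 899, 595 and 612 at 96 h, against 1774, 1233 and 1109 at 0 h. Course 1 lay above courses 2 and 3 at both times, as did the control at 1683 (96 h) and 1791 (0 h). Each course fell by a similar factor, by 0.97, 1.03 and 0.84 on the log2 scale in courses 1, 2 and 3. The change of the means was -0.95 (SE 0.24, adjusted p = 0.0035, and 0.0512 without course 2). The arm difference of -0.86 was not called (adjusted p = 0.287), but in the blocked fit its SE was 0.14 and its adjusted p was 1.76e-04.

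CYCS, the cytochrome c that shuttles electrons between complexes III and IV, read 3092, 3524 and 3866 at 96 h, against 5097, 5717 and 5123 at 0 h, with 4917 against 4994 in the control. Its groups were apart, the log2 change was -0.61 (SE 0.09, adjusted p = 1.96e-05) and the arm difference was -0.58 (adjusted p = 0.0348), which was lost without any 1 course (adjusted p between 0.0598 and 0.0928). A dim CYCS probe set went the other way, with 110 at 96 h against 72.0 at 0 h (0.52, adjusted p = 0.0138 in a fit of all probe sets), and the mean of the CYCS probe sets was not called (adjusted p = 0.990). UQCRQ, which sits beside cytochrome b, read 1210, 1101 and 1281 at 96 h, against 1805, 1840 and 1880 at 0 h. It fell by 0.62 on the log2 scale (adjusted p = 5.70e-06). The control also fell, to 1296 at 96 h against 1778 at 0 h, and the arm difference was -0.17 (adjusted p = 0.595). Over the later times together the arm difference of UQCRQ was -0.31, and the blocked fit called it (adjusted p = 0.01997). UQCR10, a small subunit of complex III, fell by 0.48 (adjusted p = 2.57e-05, or 0.767 with its probe sets averaged), while UQCRB and UQCRC2 were not called at -0.01 and 0.03.

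For complex IV, the terminal oxidase, the falls were smaller. COX8A, a small subunit of complex IV, read 1769, 1554 and 1725 at 96 h, against 2402, 2410 and 2419 at 0 h, and its log2 change was -0.52 (SE 0.09, adjusted p = 8.45e-05). The control array moved as far, to 1842 at 96 h against 2568 at 0 h, and the arm difference was -0.04 (adjusted p = 0.922). COX5B, a zinc-binding subunit, read 1736, 1688 and 1840 at 96 h, against 2231, 2358 and 2212 at 0 h, while the control read 2325 at 96 h and 2233 at 0 h. COX5B fell by 0.37 (adjusted p = 1.60e-04) with an arm difference of -0.43 (adjusted p = 0.0374) that was lost without any 1 course (adjusted p between 0.0727 and 0.188). Its partner COX5A fell by 0.35 (adjusted p = 0.0013, and 0.0657 after quantile normalization). The arm difference of COX5A, -0.47, was not called (adjusted p = 0.055), while the blocked fit called it (adjusted p = 0.0047).

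COX7A2L, a relative of COX7A2 that helps to join complexes III and IV, was the called rise of complex IV. It read 2008, 2088 and 2065 at 96 h, against 1479, 1833 and 1763 at 0 h, a log2 change of 0.28 (SE 0.09, adjusted p = 0.0139). The groups did not overlap. The control rose alike, to 1857 at 96 h against 1590 at 0 h, and the arm difference was 0.06 (adjusted p = 0.881). The call at 96 h was lost with median centring (adjusted p = 0.149) and without any 1 course (adjusted p between 0.0664 and 0.0799). COX7A2 itself was not called (-0.09, adjusted p = 0.544).

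Several subunits of complex IV come as a common form and a form of particular tissues. The common forms COX4I1, COX6A1 and COX7B fell by 0.19, 0.30 and 0.30 on the log2 scale (adjusted p = 0.013, 0.0024 and 0.0049), and COX6B1 changed by -0.19 (adjusted p = 0.0544, or 0.0162 in the blocked fit). COX4I1 was not called without any 1 course (adjusted p between 0.0626 and 0.152) or after quantile normalization (-0.0476, adjusted p = 0.405), and COX6A1 and COX7B not without course 2 (adjusted p = 0.0707 and 0.0567). The forms of particular tissues COX4I2, COX6A2 and COX6B2 stayed dim, with 96 h means of 24.7, 20.0 and 19.7 against 34.8, 18.5 and 18.2 at 0 h, and none was called. COX7A1, COX7B2 and COX8C did not pass the filter, with no array above 11.3, 15.1 and 1.7. NDUFA4 and NDUFA4L2, once counted with complex I, carry the symbols COXFA4 and COXFA4L2 in the annotation and so fall outside the name rule. COXFA4 had a log2 change of -0.24 at 96 h (adjusted p = 0.0252), and COXFA4L2 one of -0.60 that was not called (adjusted p = 0.175).

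In the ATP synthase the 3 genes for subunit c, the proton-carrying ring of the rotor, did not move alike. ATP5MC1, ATP5MC2 and ATP5MC3 encode the same mature protein with different import sequences. ATP5MC1 read 554, 734 and 818 at 96 h, against 1619, 1677 and 1519 at 0 h, and 1196 against 1373 in the control. Its log2 change was -1.19 (SE 0.11, adjusted p = 9.02e-08) and the arm difference was -0.99 (SE 0.22, adjusted p = 0.005), which was lost without course 2 (adjusted p = 0.0653). ATP5MC2 read 2785, 2523 and 2666 at 96 h, against 2713, 2990 and 2821 at 0 h, so its groups overlapped, and it was not called (-0.10, adjusted p = 0.306). ATP5MC3 read 2587, 2375 and 2477 at 96 h, against 2861, 2728 and 3246 at 0 h, and fell by 0.24 on the log2 scale (adjusted p = 0.0093). That call was lost without course 3 (adjusted p = 0.160), after quantile normalization (-0.0984, adjusted p = 0.296) and with its probe sets averaged (-0.19, adjusted p = 0.0762).

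The ratio of ATP5MC1 to ATP5MC2 within an array thus shifted. Its log2 change at 96 h averaged -1.10, with an SE of 0.20 from the 3 arrays at each time, unpaired. It ran from -1.56 to -0.80 over the courses and was -0.18 in the control. An exact two-sided permutation test of the 3 arrays at each time gave p = 0.1, the smallest that 3 against 3 allows. At 48 h ATP5MC1 was already lower (970, 1034 and 997, log2 change -0.67, adjusted p = 1.07e-04) while ATP5MC2 was higher (3249, 3578 and 3404, log2 change 0.26, adjusted p = 0.008). A difference of probe response between these genes cannot be told apart from a difference of their transcript levels, so only the changes are compared here.

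**Figure D4:**
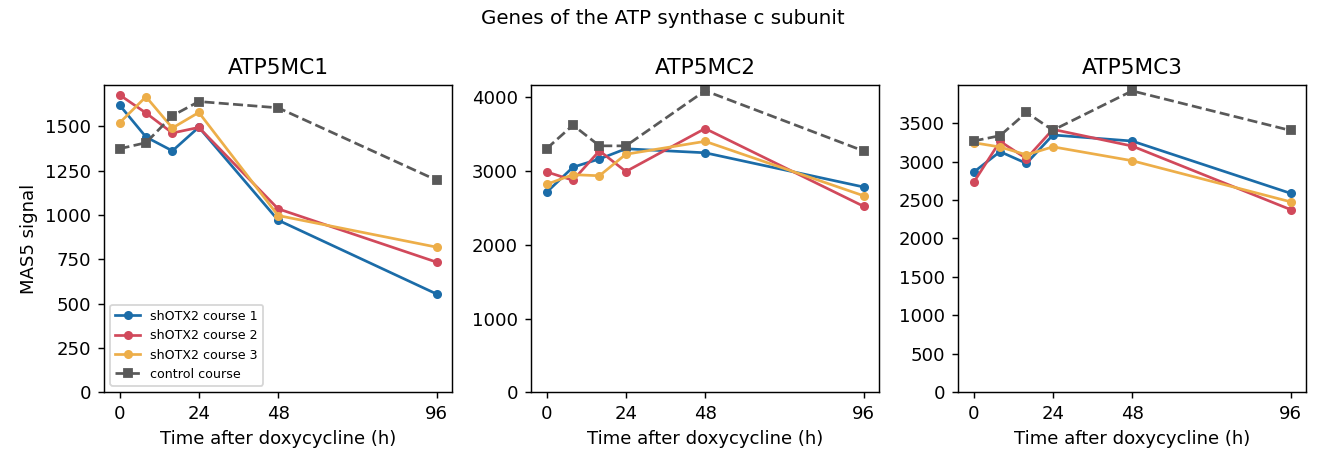
MAS5 signal (vertical axes, each from 0) by time after doxycycline in hours (horizontal axes) for the 3 genes of the ATP synthase c subunit, 1 line per course. ATP5MC1 is between 554 and 818 at 96 h in the shOTX2 courses and at 1196 in the control, while ATP5MC2 at 96 h stays within the range of its own 0 h arrays or just below it.

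The start regions of NDUFAF2 and ATP5MC1, the members with the largest falls, are shown beside that of ATP5MC2, the gene for the same c subunit whose change was not called. Each line gives the 250 bases before the gene's start, 5′ to 3′ on the gene's strand, from RefSeq on GRCh38.p14. Capitals mark the letters CCAAT, or ATTGG where the match is on the other strand. This motif, the core of the box bound by the factor NF-Y, was picked after the sequences had been read.
NDUFAF2 (chr5:60944955-60945204, plus strand): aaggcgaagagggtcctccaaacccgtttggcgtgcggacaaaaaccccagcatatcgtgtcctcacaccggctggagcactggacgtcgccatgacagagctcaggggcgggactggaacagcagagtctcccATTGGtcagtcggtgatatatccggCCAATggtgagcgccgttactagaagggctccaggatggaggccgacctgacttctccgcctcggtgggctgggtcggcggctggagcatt
ATP5MC1 (chr17:48892537-48892786, plus strand): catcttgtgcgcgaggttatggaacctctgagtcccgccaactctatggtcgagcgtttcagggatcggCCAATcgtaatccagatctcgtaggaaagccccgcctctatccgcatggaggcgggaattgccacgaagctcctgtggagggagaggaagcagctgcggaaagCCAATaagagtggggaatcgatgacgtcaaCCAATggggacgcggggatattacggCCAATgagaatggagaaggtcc
ATP5MC2 (chr12:53676084-53676333, minus strand): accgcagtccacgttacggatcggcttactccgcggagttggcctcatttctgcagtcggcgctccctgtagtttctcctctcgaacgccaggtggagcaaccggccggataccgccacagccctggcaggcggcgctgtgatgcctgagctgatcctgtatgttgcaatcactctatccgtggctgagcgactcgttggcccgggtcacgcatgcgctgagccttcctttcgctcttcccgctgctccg

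ATP5MC1 held 4 copies of CCAAT, NDUFAF2 held 2, and ATP5MC2 held none in this window. Of 15842 protein-coding promoters of the same length, 1.16% held 4 or more copies and 34.5% at least 1. Among 78 coding members with a promoter in the table, 24 (30.8%) held at least 1 copy, so the motif was no more frequent in the members than in all promoters. Matches on both strands were counted, and a match is a run of letters, not a site.

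Other short motifs known from nuclear genes of mitochondrial proteins were counted in the same windows on both strands. The ETS core CCGGAAG stood in 18 of 78 member promoters (23.1%), against 11.8% of all promoters. It was found in 12 of 39 genes called lower at 96 h (30.8%) and in 6 of 37 tested genes not called lower (16.2%). The palindrome of the factor NRF1, which is GCGCA followed by its reverse complement TGCGC, stood in 3 member promoters (3.85%), against 1.48% of all, namely those of ATP5F1C, NDUFB4 and SDHD. The YY1 motif AAGATGGC was in 1 member promoter (1.28%, against 1.39% of all) and the E-box CACGTG in 7 (8.97%, against 7.84%). Between genes called lower and not called lower, the E-box stood in 12.8% and 5.41%, and CCAAT in 33.3% and 27.0%. The NRF1 palindrome stood in 2.56% and 5.41%, and the YY1 motif in 0.0% and 2.7%. These shares are descriptions without a test.

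Other parts of the ATP synthase fell by less than ATP5MC1. ATP5IF1, the inhibitor that stops the enzyme from running backwards, read 668, 650 and 695 at 96 h, against 1076, 1039 and 1193 at 0 h. Its log2 change was -0.70 (SE 0.10, adjusted p = 1.62e-05), and the control read 952 at 96 h and 1130 at 0 h. The arm difference of -0.46 was not called (adjusted p = 0.154), while the blocked fit called it (adjusted p = 0.0448). ATP5ME and ATP5MK, small membrane subunits at which ATP synthases join into pairs, both fell. ATP5ME read 2091, 1867 and 2124 at 96 h, against 3074, 3528 and 3221 at 0 h, and fell by 0.69 (adjusted p = 5.10e-05), but its control was at 77.6% of 0 h and the arm difference of -0.32 was not called (adjusted p = 0.397). ATP5MK read 2505, 2440 and 2669 at 96 h, against 3682, 4427 and 3566 at 0 h, and fell by 0.61 (adjusted p = 3.29e-05). For ATP5MK the control was at 95.9% of 0 h, and the arm difference over the later times was -0.53 (adjusted p = 0.0068), a call kept under all 13 other settings.

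The catalytic head of the enzyme and its central stalk are encoded by ATP5F1A to ATP5F1E, and ATP5F1B was the one of them called at 96 h. It fell by 0.27 on the log2 scale (adjusted p = 0.0255), as far as the median member, and lost the call after quantile normalization (-0.11, adjusted p = 0.327), without the mean-variance trend (adjusted p = 0.0697) and without course 2 or course 3 (adjusted p = 0.241 and 0.111). ATP5F1A and ATP5F1C were not called at -0.12 and -0.02, although ATP5F1A was with median centring (-0.24, adjusted p = 0.0304). ATP5F1E changed by -0.20 (adjusted p = 0.106), and was called in the blocked fit (0.0256) and with median centring (0.0196). ATP5F1D read 371, 190 and 181 at 96 h, against 567, 292 and 285 at 0 h. Its level in course 1 was thus apart from the other courses at both times, and its change of -0.59 was not called (adjusted p = 0.232) except in the blocked fit (adjusted p = 1.54e-05) and without course 1 (adjusted p = 2.36e-04). These subunits were picked for description after their values were seen.

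The 8 members called for the arm difference at 96 h were NDUFAF2, ATP5MC1, NDUFA12, NDUFA9, NDUFAF4, CYCS, NDUFB9 and COX5B. NDUFB9, a membrane arm subunit of complex I that lay outside the naming rule and was picked after its values were seen, read 3074, 2806 and 2948 at 96 h, against 3739, 4107 and 3598 at 0 h. Its control read 4041 at 96 h against 3690 at 0 h, and the difference was -0.50 (adjusted p = 0.0349, and 0.206 and 0.061 without courses 2 and 3). COX8A and UQCRQ, which fell in the shOTX2 arm about as far as ATP5MK did, were not among the 8, and their control arrays at 96 h were at 71.7% and 72.9% of 0 h.

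The 9 members higher at 48 h were NDUFB5, NDUFB4, NDUFA10, SDHAF4, UQCRB, COX7A2L, COX7C, ATP5F1C and ATP5MC2, with log2 changes between 0.17 and 0.54. Of these, 3 were still called higher at 96 h. Called lower from 48 to 96 h were 4 of them, NDUFB5, UQCRB, ATP5F1C and ATP5MC2. The 12 lower at 48 h ran from -0.27 for UQCRQ to -0.87 for NDUFAF2, and all 12 were called lower at 96 h.

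Probe sets of 1 gene did not always run together. Of 162 member probe sets above the filter, 54 were called lower and 10 higher at 96 h when each was fitted on its own, against 16.8% lower and 20.0% higher of 33803 probe sets in that fit. Among 45 genes with more than 1 such probe set, 16 had probe sets of both signs, and in 4 of them (COX4I1, COX7B, CYCS and UQCR10) probe sets were called in both directions. In those 4 the rising probe set was the dim one. For UQCR10 it read 203 at 96 h against 150 at 0 h, while the bright one read 2690 against 3761. For COX7B the dim one read 137 against 89.3 and the bright one 2852 against 3519. What part of the transcripts the dim probe sets read was not examined here.

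Genes that serve the chain without being part of it were read from lists chosen with earlier results of these data known. Their counts at 96 h stand against 22.5% lower, 21.1% higher and a median of -0.0007 over all genes. Of 39 other assembly factors, 20 were lower (51.3%) and 3 higher, with a median of -0.30. COX11, which delivers copper to complex IV, had the largest fall of them at 1061 ± 285 at 96 h, against 3021 ± 595 at 0 h (SD, n = 3). Its log2 change was -1.51 (adjusted p = 8.55e-06), and its arm difference of -1.22 was not called (adjusted p = 0.0566). OXA1L, the insertase that places subunits in the inner membrane, went the other way at 1989 ± 110 against 565 ± 64.9 (log2 change 1.79, adjusted p = 4.08e-10, arm difference 1.37, adjusted p = 2.82e-04).

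Of 75 tested genes for mitochondrial ribosomal proteins, which translate the subunits encoded by the mitochondrial genome, 53 were lower (70.7%) and 2 higher at 96 h, with a median of -0.56. MRPL4 was the largest fall at -1.28 (adjusted p = 1.08e-04) and MRPL45 the larger rise at 0.39 (adjusted p = 0.0031). Their arm differences of -1.12 and 0.16 were not called (adjusted p = 0.104 and 0.695). Against the control's change, 10 of 75 were called lower (13.3%) and 0 higher, where 7.43% of all genes were lower and 6.21% higher. Of 16 tested genes of the citric acid cycle, which feeds the chain with NADH and succinate, 8 were lower (50%) and 0 higher, with a median of -0.34. MDH2, the mitochondrial malate dehydrogenase, was at 1642 ± 35.1 at 96 h, against 2608 ± 168 at 0 h (SD, n = 3; log2 change -0.66, adjusted p = 1.49e-06), and differed from the control's change by -0.77 (adjusted p = 0.0024).

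The 17 regulators of mitochondrial biogenesis held 9 lower (52.9%) and 2 higher, with a median of -0.41. PPRC1, a coactivator of the PGC-1 family, changed by -0.91 (adjusted p = 0.0087), with an arm difference of -0.57 that was not called (adjusted p = 0.569). PPARGC1A, its better known relative, read 26.5 ± 1.42 at 96 h against 1.30 ± 0.656 at 0 h (SD, n = 3), a dim level at both times. The log2 change of PPARGC1A was 1.30 (adjusted p = 5.82e-06), and its arm difference was 1.06 (adjusted p = 0.0453). Of 6 tested carriers of adenine nucleotides and phosphate and pores of the outer membrane, 4 were lower (66.7%) and 0 higher, with a median of -0.46. VDAC1, the main pore, had the largest fall there, at -0.79 (adjusted p = 1.37e-05), with an arm difference of -0.56 that was not called (adjusted p = 0.113).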

How the data were processed

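The deposited intensity values are MAS5 signals on a linear scale, and per the submitters' processing notes the authors used MAS5 and GCOS (no version is given in these notes). The trimmed mean, with 2% left out at each end, was between 99.986 and 99.988 on all 24 arrays, so the authors had scaled each array as a whole. Median signals were between 16.3 and 20.6. Arrays have no read depth, and their number limits the precision.

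Names came from the platform's annotation of probe sets, with symbols updated by Entrez ID through the RefSeq gene table of GRCh38.p14. A further 12 names that match the rule were found only on probe sets with several symbols and were not used. Probe sets with a signal above that array's median on 3 or more arrays were kept, and the kept probe set with the highest mean stood for a gene. ATP5MF, COX6A1P1, COX7A1, COX7B2 and COX8C did not pass.

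limma 3.58.1 in R 4.3.3 was fitted to log2(signal + 16) with 12 group means over 24 arrays, which left 12 residual degrees of freedom, and eBayes with a mean-variance trend. Benjamini-Hochberg adjustment ran over 13903 genes. The procedure was tested on simulated data. Courses are independent experiments per the labels, and deviations from group means correlated in all 45 same-course pairs of arrays (r across genes from 0.15 to 0.55), so the course pairs the arrays; the fit with it as a replicate block is given where it changes a call.

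The members and all lists were chosen with earlier results of these data known. The rule for naming took the 3 largest called changes each way at 96 h in each complex, members called at 16 or 24 h, up to 6 each way called between the arms, paralogues, members whose probe sets differ in sign, and the largest called change each way in each other list. Promoters came from RefSeq.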

Additional observations from a re-analysis of the deposited data

Results flagged for a closer look

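The changes of some members differed between the shOTX2 arm and the control course by limma's test of the difference itself, with 1 control array per time that is assumed to vary like the shOTX2 arrays. For 96 h against 0 h, the differences on the log2 scale were -1.29 for NDUFAF2, -0.99 for ATP5MC1, -0.66 for NDUFA12, -0.64 for NDUFA9, -0.62 for NDUFAF4, -0.58 for CYCS and -0.43 for COX5B. Every course is set against the same pair of control arrays here.

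For 48 and 96 h against 0 and 8 h, the differences were -0.96 for NDUFAF2, -0.91 for ATP5MC1, -0.65 for NDUFA9, -0.61 for NDUFA12, -0.53 for ATP5MK, -0.51 for NDUFAF3, -0.42 for NDUFS6, -0.42 for ATP5IF1 and -0.33 for UQCR10. The differences of NDUFB4 and NDUFB5 were positive, at 0.38 and 0.31. NDUFV2-AS1, an antisense RNA, differed by 1.07, but it was dim, at 20.5 ± 3.98 at 96 h and 26.5 ± 17.3 at 0 h in the shOTX2 arm (SD, n = 3), and 18.0 at 96 h and 46.6 at 0 h in the control. Its probe set may not tell strands of the NDUFV2 locus apart.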

How the results depend on the processing

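Each result was recomputed under 13 other settings. Of 47 named calls, 19 held under all of them, and 3 turned sign when a gene's probe sets were averaged: COX4I1 (0.0605, adjusted p = 0.593) and COX7B (0.1194, adjusted p = 0.385) at 96 h, and the late arm difference of UQCR10 (0.037, adjusted p = 0.888). The cause was not tested. With the course as a replicate block the counts of members called were 2 at 16 h, 6 at 24 h, 32 at 48 h, 5 higher at 96 h, 20 for the arm difference at 96 h and 30 for the later times; it ended no named call, and the arms at 0 h could not be fitted with it. Leaving out 1 course gave 0 calls at 24 h, 12 to 20 at 48 h, 23 to 47 lower and 0 to 1 higher at 96 h, 1 to 9 and 6 to 14 for the arm differences, and 0 to 4 at 0 h between the arms. With only the groups compared the counts were 0 at 24 h, 0 higher at 96 h, and 1 and 8 for the arm differences. Without the mean-variance trend they were 0 at 24 h and 4 and 8 for the arm differences. The arm difference at 96 h had 4 calls with no filter and 5 with probe sets averaged. Members called higher at 96 h numbered 0 with each array centred on its median, 6 after quantile normalization and 6 with probe sets averaged. The median of the members at 96 h, -0.27 as reported, was -0.38 with centring (all genes -0.12, against -0.0007 as reported), -0.17 after quantile normalization (all genes -0.0593) and -0.19 with probe sets averaged (all genes 0.0128), where 33 and 34 members were called lower in the last 2. Quantile normalization ended the 96 h calls of ATP5MC3, COX4I1, COX5A and SDHAF4, and averaging those of ATP5MC3, CYCS, NDUFAF4, NDUFS1 and UQCR10 besides the sign changes above. Dim genes are limited by the signal over background, and their log2 changes are understated.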
